A study of Capra hircus with 6 samples.

Results

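The genes described here encode 9 enzymes that make the nucleotides a cell needs to copy its DNA, namely *RRM1*, *RRM2*, *TYMS*, *TK1*, *DUT*, *CAD*, *UMPS*, *CTPS1*, and *GART*. They were taken by name from the 15944 genes listed in the deposited table, and all 9 were found there under their own symbols. Transcripts were measured by poly(A) RNA-seq in secondary hair follicle dermal papilla cells (SHF-DPCs) of Albas cashmere goats (*Capra hircus*), wild type, from animals 3 years old. The ATRA-treated group (3 libraries) received all-trans retinoic acid, the vitamin A metabolite that binds retinoic acid receptors, at 100 µM for 24 h, and the control group (3 libraries) received culture medium without it for the same time, both in medium with serum. The cells were primary cultures from 3 animals, all libraries carry the same batch label, and the sources do not say whether a control library and an ATRA library with the same number share an animal. If they came from other than separate cultures, the p-values below measure only the spread between these libraries.

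Deoxynucleotides are built along converging routes. One route assembles the pyrimidine ring (CAD, then DHODH, then UMPS) and turns UTP into CTP (CTPS1), and another assembles the purine ring, with GART catalyzing several of its steps. Ribonucleotide reductase, made of the large subunit RRM1 and the small subunit RRM2, then removes an oxygen from ribonucleotides to give deoxyribonucleotides. Thymidylate is made from dUMP by TYMS, which draws on dUMP released by DUT and on folate that carries a carbon unit, or is recovered from thymidine by TK1. RRM2, TK1, and TYMS are textbook S-phase enzymes, whereas the ring-building enzymes also serve RNA synthesis in cells that do not divide. In skin, dermal papilla cells are the mesenchymal cells at the base of the follicle that signal to the hair-forming epithelium.

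Total counts were 35532339 to 38012771 per library. Of the dermal papilla and mesenchymal markers examined, *VIM*, *PDGFRA*, *VCAN*, and *ACTA2* were abundant in the control group. By contrast, *PROM1* (CD133), *ALPL*, and *CORIN* had at most 1 count in any library. *SOX2* had 0 to 5 counts in the control libraries and 9 to 16 with ATRA, and *LEF1* had 468 to 550 and 430 to 517. The markers that were present were thus mostly general mesenchymal ones. The summed level of the 9 markers fell from 23078 to 24993 counts per 1e6 of the library total (CPM, not TMM-normalized here) in the control group to 2095 to 2096 CPM in the ATRA-treated group. The measured leukocyte markers (3 of 5 listed, led by *CD14* and *CD68*) summed to 7.79 to 10.9 CPM in the control group and 48.0 to 51.9 CPM with ATRA, and the endothelial markers (5 of 6) to 0.766 to 1.05 and 7.20 to 11.0 CPM. The keratinocyte markers (7 of 8) summed to 2.64 to 4.24 and 6.45 to 7.10 CPM, and the melanocyte markers (1 of 5) to 3.20 to 3.62 and 2.32 to 2.73 CPM. Among the keratinocyte markers, *KRT10* had 79 to 138 counts in the control libraries and 231 to 252 with ATRA, while *KRT14* had 10 to 20 and 0 to 3 and *KRT5* had 2 to 7 and 0. Of the defining markers, *CDH1*, *EPCAM*, *KRT5*, *KRT14*, and *CDH5* had at most 20 counts in any library, while *PECAM1* had 0 in the control libraries and 206 to 340 with ATRA. Most of the endothelial rise was thus *PECAM1*. *TEK* had 14 to 23 counts in the control libraries and 39 to 57 with ATRA, *VWF* 5 to 12 and 8 to 12, and *KDR* 5 to 10 and 0 to 2. The part of all these markers in the results below was not tested. In these bulk libraries, fewer cells of a type and less RNA per cell cannot be told apart.

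The nucleotide synthesis genes did not move as a block. With ATRA, the transcripts of *RRM2* and *TK1* were all but gone, those of *CTPS1*, *TYMS*, and *RRM1* fell to between 16.5% and 28.3% of the control level, those of *UMPS*, *CAD*, and *DUT* fell by less than 2-fold, and *GART* did not pass the test. Summed over the 9 genes, the level was 717 to 749 CPM of the library total in the control libraries and 268 to 278 CPM in the ATRA libraries. At an adjusted p under 0.05 (edgeR's quasi-likelihood test, two-sided, Benjamini-Hochberg adjustment over the 12588 genes tested), 8 of the 9 genes were lower and 0 were higher, against 38.7% of all tested genes lower and 40.9% higher. With a log2 fold change (log2FC) beyond 1 as well, 5 of the 9 were lower, against 17.3% of all genes lower and 13.7% higher. The median log2FC of the enzymes was -1.82, and that of all tested genes was 0.04. With the libraries divided by their size only, 7 of the 9 were lower and 1 was higher, against 2861 lower and 7921 higher of all tested genes. Every ATRA library lay below every control library for 8 of the 9 genes, against 39.0% of all genes below and 41.2% above.

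**Figure D1:**
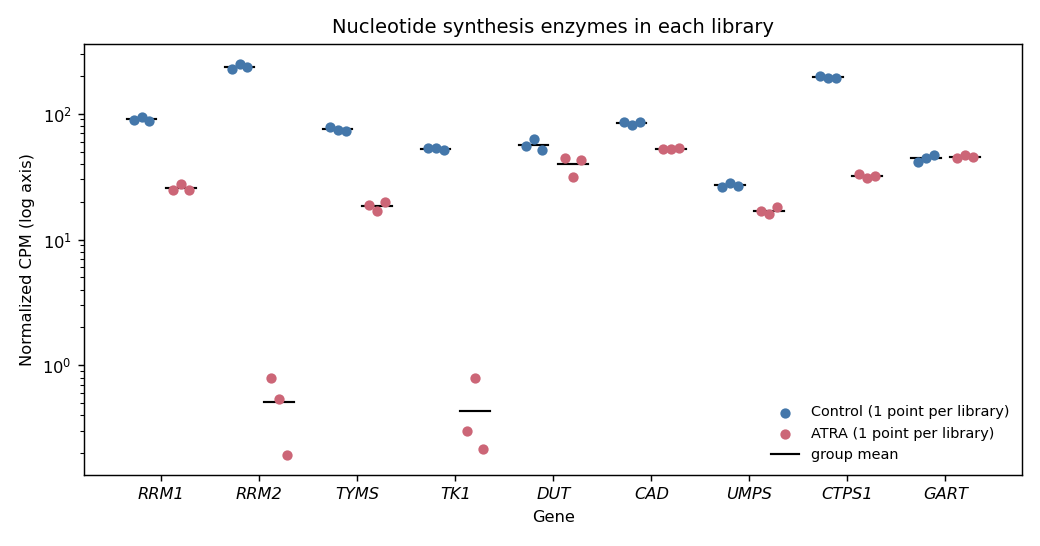
Normalized CPM (vertical log axis) of each enzyme gene in each library, with 1 point per library, control in blue, ATRA in red, and a black line at the group mean. The ATRA points of *RRM2* and *TK1* lie below 1 CPM, those of *GART* overlap the control points, and the others lie below the control points.

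The subunits of ribonucleotide reductase fell by very different amounts. *RRM2*, the small subunit that holds the tyrosyl radical, had 225.6, 249.9, and 234.6 normalized CPM in control replicates 1 to 3 and 0.787, 0.544, and 0.193 CPM in ATRA replicates 1 to 3. Those ATRA values rest on 34, 24, and 8 reads, against 7004 to 8084 reads in the control libraries. The groups were far apart, and the ATRA libraries spread widely for their level, with a coefficient of variation of 58.7% against 5.18% in the control group. The log2FC of *RRM2* was -8.84 (95% interval -9.17 to -8.51, adjusted p = 1.25e-17, edgeR), a level 459-fold lower. Without ATRA replicate 1 it was -9.30, and without ATRA replicate 3 it was -8.48, both outside that interval. The standard error was 0.155 in edgeR and 0.465 in DESeq2, so the fold is less precise than the interval reads. *RRM2* ranked 22 from the lowest log2FC of the 12588 genes tested. Among reads on the 9 enzymes, *RRM2* took 26.5% to 28.4% in the control libraries and 0.0817% to 0.334% in the ATRA libraries.

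*RRM1*, the large catalytic subunit, had 89.7, 94.9, and 87.4 CPM in the control libraries and 24.8, 27.6, and 24.6 CPM in the ATRA libraries. All ATRA values were below all control values and close to each other. Its log2FC was -1.82 (standard error 0.0695, adjusted p = 2.36e-14), with 28.3% of the control level left and rank 1160 from the lowest. *RRM2B*, the p53-inducible small subunit that can replace RRM2 and supplies deoxynucleotides outside S phase, moved the opposite way. It had 387, 485, and 451 reads in the control libraries and 1007, 1210, and 926 reads with ATRA, with a log2FC of 0.82 (standard error 0.0978, adjusted p = 4.37e-07).

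Counts of a gene pair within the same library do not depend on scaling between libraries, so 6 pairs are given as log2 ratios. These are ratios of reads, not of molecules, because exon lengths were not used here. There were 2.51 to 2.68 *RRM2* reads per *RRM1* read in the control libraries and 0.00835 to 0.0321 in the ATRA libraries. The log2 ratio went from 1.38 ± 0.0481 to -5.83 ± 0.988 (SD, n = 3 each), without overlap (p = 0.1 by a two-sided exact permutation test, which cannot go lower with 3 against 3 libraries, and 0.117 adjusted over the 7 ratios computed). *RRM2B* reads per *RRM2* read rose from 0.0553 to 0.0601 in the control libraries to 29.2 to 109 in the ATRA libraries, again without overlap. In the control group the *RRM2* reads outnumbered those of *RRM2B*, and with ATRA the order was the other way in 3 of 3 libraries.

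Thymidylate can be made anew or recovered. *TK1*, the cytosolic thymidine kinase of the recovery route, had 53.1, 53.7, and 51.6 CPM in the control libraries and 0.301, 0.794, and 0.217 CPM in the ATRA libraries, on 13, 35, and 9 reads. Each ATRA library lay far below the control libraries, with replicate 2 above the other ATRA replicates. The log2FC was -6.89 (95% interval -7.28 to -6.50, adjusted p = 6.26e-16, edgeR), 118-fold lower, at rank 79 from the lowest. Without ATRA replicate 2 it was -7.66, outside that interval, and without ATRA replicate 3 it was -6.59. *TK2*, the mitochondrial thymidine kinase, rose, from 1650 to 1915 reads to 3524 to 3770 reads (log2FC 0.59, standard error 0.0720, adjusted p = 6.09e-07). The *TK1* to *TK2* ratio of reads was 0.860 to 1.01 in the control libraries and 0.00259 to 0.0101 with ATRA, without overlap.

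*TYMS*, thymidylate synthase, had 78.2, 73.9, and 73.3 CPM in the control libraries and 18.9, 16.9, and 19.9 CPM with ATRA. The groups were apart and tight, with a log2FC of -2.01 (standard error 0.0750, adjusted p = 1.62e-14) and 24.8% of the control level left. *DTYMK*, the kinase after TYMS and TK1, fell from 20.7 ± 2.72 to 3.51 ± 0.731 CPM (SD, n = 3 each, log2FC -2.57, standard error 0.140, adjusted p = 8.85e-12).

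*DUT*, which hydrolyzes dUTP to dUMP and so keeps uracil out of DNA, changed least of the genes that fell. It had 55.6, 62.8, and 51.7 CPM in the control libraries and 44.2, 31.6, and 43.1 CPM with ATRA. The groups did not overlap, but ATRA replicate 2 was well below the other ATRA libraries. The log2FC was -0.52 (95% interval -0.75 to -0.29, adjusted p = 0.000374), and it was -0.39 without ATRA replicate 2. With the libraries divided by their size only, the difference was lost (log2FC -0.0397, adjusted p = 0.730). *DUT* and *TYMS* shifted against each other, with 0.705 to 0.850 *DUT* reads per *TYMS* read in the control libraries and 1.86 to 2.34 with ATRA, without overlap.

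Of the enzymes of pyrimidine ring assembly, CAD and UMPS fell by less than 2-fold and DHODH rose. *CAD*, the multifunctional enzyme of the opening steps, had 85.1, 80.7, and 85.4 CPM in the control libraries and 52.7, 52.2, and 52.9 CPM with ATRA. The ATRA libraries were almost equal and all below the controls (log2FC -0.67, standard error 0.0600, adjusted p = 8.21e-09). *UMPS*, which completes UMP, had 26.2, 28.2, and 26.8 CPM in the control libraries and 16.7, 16.03, and 18.2 CPM with ATRA, also without overlap (log2FC -0.67, standard error 0.0810, adjusted p = 4.66e-07). The reads of *CAD* per *UMPS* read overlapped, at 2.86 to 3.25 in the control libraries and 2.91 to 3.26 with ATRA (exact permutation p = 0.9). *DHODH*, the mitochondrial enzyme between them, went from 16.8 ± 1.99 to 28.8 ± 1.35 CPM (SD, n = 3 each, log2FC 0.78, standard error 0.0899, adjusted p = 2.81e-07).

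*CTPS1*, which aminates UTP to CTP, fell much more than the enzymes that supply its substrate. It had 197.6, 192.0, and 192.9 CPM in the control libraries and 32.9, 30.8, and 32.1 CPM with ATRA, with a coefficient of variation of 1.53% in the control group. Its log2FC was -2.603 (95% interval -2.73 to -2.48, adjusted p = 1.05e-17, edgeR), 6.08-fold lower, at rank 728 from the lowest. The isoenzyme *CTPS2* rose slightly, with a log2FC of 0.27 (standard error 0.0877, adjusted p = 0.00928). There were 12.2 to 14.4 *CTPS1* reads per *CTPS2* read in the control libraries and 1.68 to 1.89 with ATRA, without overlap, so *CTPS1* remained the more counted gene in every library.

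*GART*, the trifunctional enzyme of purine ring assembly, had 41.3, 44.6, and 46.8 CPM in the control libraries and 44.2, 47.1, and 45.3 CPM with ATRA. The groups overlapped, and the log2FC was 0.04 (95% interval -0.10 to 0.19, adjusted p = 0.582), an interval that leaves no room for a 2-fold change under this scaling. With the libraries divided by size only, *GART* was higher with ATRA (log2FC 0.52, adjusted p = 4.13e-06), a scaling that put the median of all tested genes at 0.52 in place of 0.04. The TMM factors were 0.842 to 0.851 in the control libraries and 1.16 to 1.197 in the ATRA libraries. Measured from the median of all tested genes, *GART* lay at 0.00470 with TMM scaling and 0.00497 with library size only, *DUT* at -0.55 and -0.56, *CAD* and *UMPS* at -0.71 under both, and *RRM2* at -8.88 under both.

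**Figure D2:**
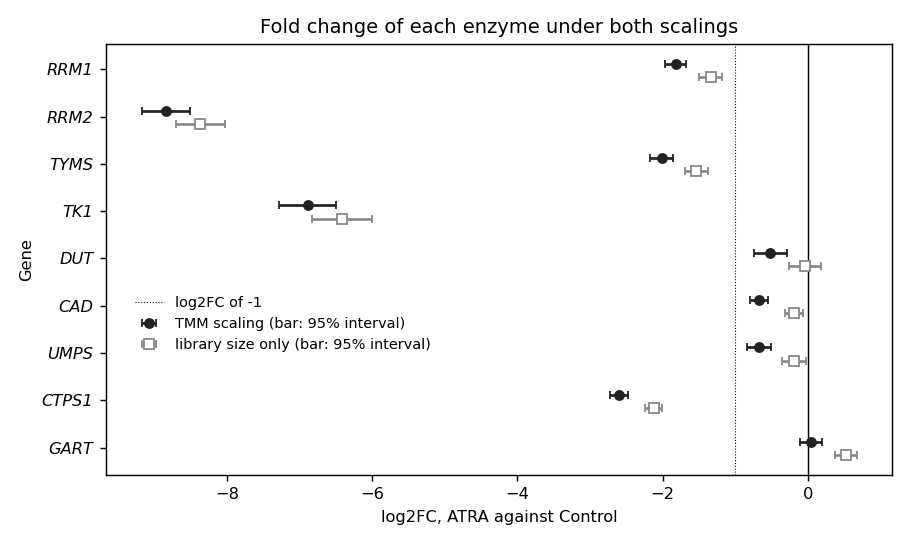
The log2FC (horizontal axis, ATRA against control) of each enzyme gene with TMM scaling (filled circles) and with library size only (open squares), with 95% intervals and a dotted line at -1. *RRM2* and *TK1* stand far to the left at -8.84 and -6.89, *CTPS1*, *TYMS*, and *RRM1* lie beyond -1 under both scalings, and *DUT* and *GART* change their call with the scaling.

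**Figure D3:**
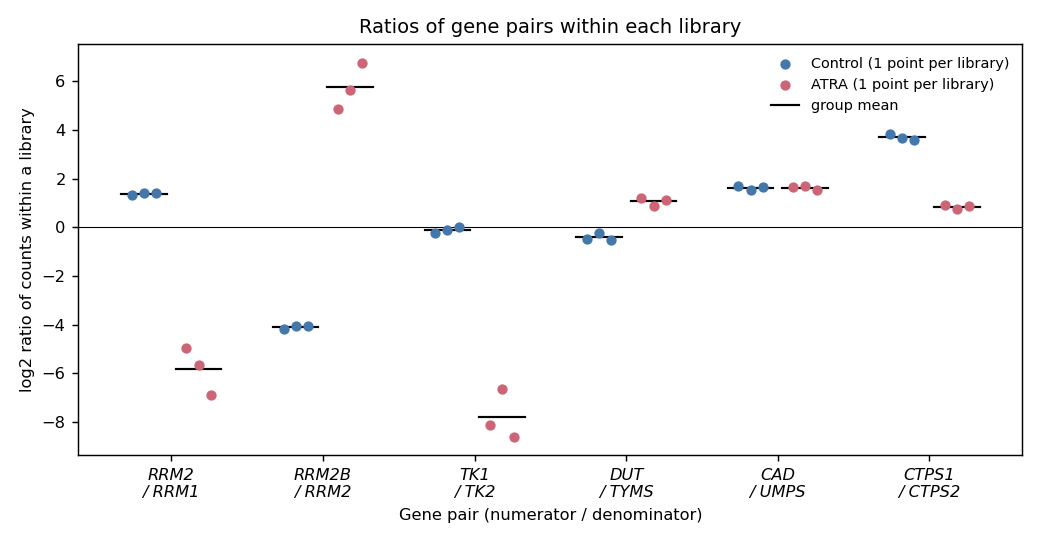
The log2 ratio of reads (vertical axis) of each gene pair in each library, with 1 point per library and a black line at the group mean. Control and ATRA libraries are apart for 5 of the 6 pairs, with the largest shift for *RRM2B* over *RRM2* (9.85 on the log2 scale), and they overlap for *CAD* over *UMPS*.

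Partners of these enzymes were described in 5 lists with 62 genes, of which 54 could be tested. By the same threshold 34 of them were lower and 16 higher, against 38.7% and 40.9% of all tested genes. Their median log2FC was -0.45. With library size only, 22 were lower and 23 higher and the median was 0.03. Under that scaling, 2861 of all 12588 tested genes were lower and 7921 higher, with a median of 0.52. The direction of many small differences thus rests on the scaling. The median of the partners lay below that of all tested genes under both scalings.

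Deoxynucleotide supply and clearance genes had 8 of 12 tested genes lower and 4 higher (all tested genes: 38.7% and 40.9%). The list's median log2FC was -0.30. With library size only, 4 of them were lower and 6 higher (all 12588 tested genes: 2861 and 7921). The lower ones were led by *DTYMK* and by *DCTPP1*, which removes modified dCTP (log2FC -1.77, standard error 0.174), and the glutaredoxin gene *GLRX* (-1.02, standard error 0.110). The higher ones were led by *CDA*, cytidine deaminase, with 1, 0, and 4 reads in the control libraries and 54, 94, and 80 with ATRA (log2FC 4.99, standard error 0.517, a value that depends on the prior count of the fit), and by *TXN*, thioredoxin, a reductant of ribonucleotide reductase (1.45, standard error 0.0701). *DCK*, which phosphorylates deoxycytidine, had a log2FC of -0.55 (adjusted p = 5.30e-05), and with library size only it was -0.0721 (adjusted p = 0.519). *SAMHD1*, which degrades deoxynucleotides, had a log2FC of -0.38 (adjusted p = 0.000195), and with library size only it was 0.10. Measured from the median of all tested genes, *DCK* lay at -0.59 and *SAMHD1* at -0.42 under both scalings.

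The pyrimidine list had 5 of 9 lower and 3 higher (all tested genes: 38.7% and 40.9%), with a median log2FC of -0.20. With library size only, it had 4 lower and 5 higher (all 12588 tested genes: 2861 and 7921). After *CMPK2* (log2FC -1.05, standard error 0.0784), a mitochondrial nucleotide kinase, the largest falls were those of *NME1* (-0.96) and the uridine kinase gene *UCK2* (-0.84), while *UCK1* rose (0.38). *NME1* has a close paralog in *NME2*, and the division of reads between them is uncertain.

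In the purine list, 7 of 12 genes were lower and 4 higher (all tested genes: 38.7% and 40.9%), with a median log2FC of -0.42. With library size only, 1 was lower and 5 were higher (all 12588 tested genes: 2861 and 7921). The list's median was then 0.06, beside 0.52 for all tested genes. *PFAS*, which acts between the steps that GART catalyzes, fell most, from 16.4 ± 1.44 to 4.23 ± 0.683 CPM (SD, n = 3 each, log2FC -1.95, adjusted p = 5.37e-11). *PPAT*, the committing enzyme, had 94, 132, and 114 reads in the control libraries and 166, 263, and 193 with ATRA (log2FC 0.44, standard error 0.176, adjusted p = 0.0291), with overlapping normalized CPM. Next by size among the genes called lower were *PRPS2* (log2FC -0.64) and *ATIC* (-0.604), which missed the threshold with library size only (adjusted p = 0.157 and 0.0862). *IMPDH2*, on the branch to GMP, had a log2FC of -0.45 (adjusted p = 9.61e-06), and with library size only it was 0.03. Measured from the median of all tested genes, *IMPDH2* lay at -0.49 and *ATIC* at -0.64 under both scalings. *PRPS2* lay at -0.68 with TMM scaling and -0.67 with library size only. The adenylosuccinate synthase genes, on the branch to AMP, rose: *ADSS2* (listed as *ADSS*) had a log2FC of 1.66 (standard error 0.0958) and *ADSS1* (listed as *ADSSL1*) of 1.17 (standard error 0.0678).

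Folate genes, which supply carbon units to TYMS and to the purine ring, had 6 of 9 tested genes lower and 2 higher. The shares over all tested genes were 38.7% and 40.9%. The median log2FC of the folate genes was -0.67. With library size only, 6 of them were lower and 3 higher (all 12588 tested genes: 2861 and 7921). The enzymes of the mitochondrial route to formate led the falls, *MTHFD1L* at -1.496 (standard error 0.0654) and *MTHFD2* at -1.15 (standard error 0.0599). The serine hydroxymethyltransferase genes parted: *SHMT2*, the mitochondrial form, fell from 229 ± 6.85 to 144 ± 4.66 CPM (log2FC -0.67), while *SHMT1*, the cytosolic form, rose from 17.7 ± 2.05 to 49.4 ± 1.64 CPM (log2FC 1.48, SD, n = 3 each). *MTHFS* rose as well (0.75).

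Salvage and breakdown genes had 8 of 12 tested genes lower and 3 higher (all tested genes: 38.7% and 40.9%). The list's median log2FC was -1.15. With library size only, 7 of them were lower and 4 higher (all 12588 tested genes: 2861 and 7921). *ADA*, adenosine deaminase, fell from 893 to 1072 reads to 142 to 153 reads (log2FC -3.18, standard error 0.109), followed by the nucleotidase gene *NT5C* (-2.94, standard error 0.159) and the adenosine kinase gene *ADK* (-2.301, standard error 0.0666). *HPRT1*, the purine base salvage enzyme, had a log2FC of -1.22 (standard error 0.0928). The nucleoside transporter genes parted: *SLC29A2* rose (1.24, standard error 0.160), whereas *SLC29A1*, named after its values were seen, fell from 146 ± 13.04 to 33.1 ± 0.458 CPM (SD, n = 3 each, log2FC -2.14). Also higher were *NT5C3A* (0.45) and the pyrimidine-degrading enzyme gene *DPYD* (0.25).

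**Figure D4:**
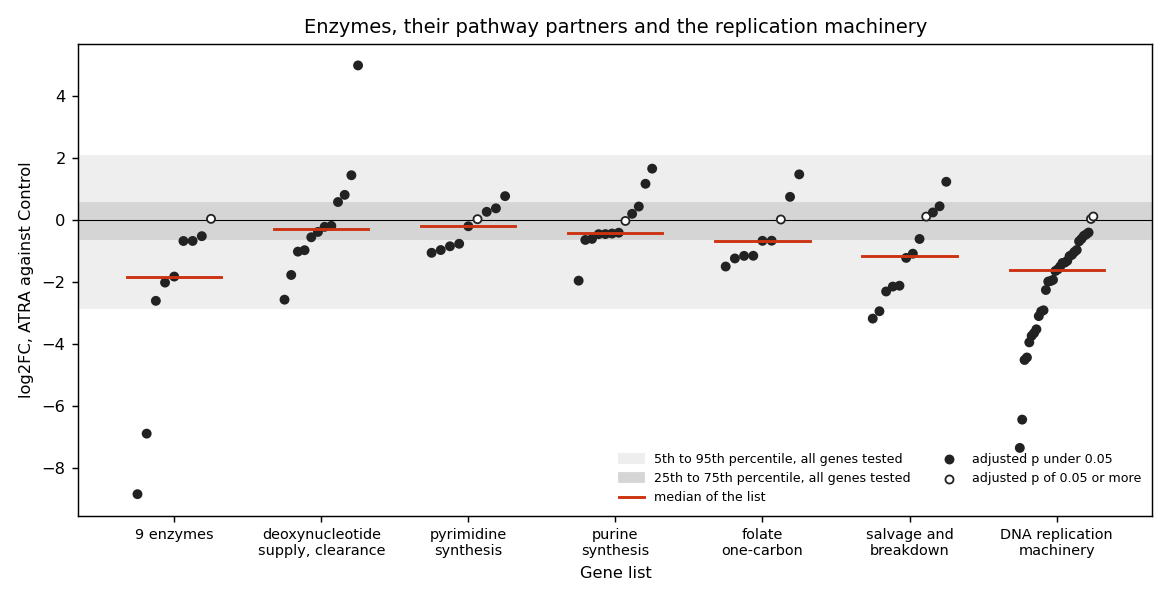
The log2FC (vertical axis, ATRA against control) of each tested gene in the 9 enzymes, the 5 partner lists, and the DNA replication machinery, with 1 point per gene, filled where the adjusted p was under 0.05, a red line at each list's median, and gray bands for the percentiles of all tested genes. *RRM2* and *TK1* lie below the 5th percentile band of all genes, as several replication genes do, and the partner lists hold genes on both sides of 0.

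The DNA replication machinery, the genes most like these enzymes by purpose, had 30 of 32 genes lower and 0 higher, 24 of them beyond a log2FC of -1. Of all tested genes, 38.7% were lower, 40.9% were higher, and 17.3% were lower beyond that log2FC. The median log2FC of the replication genes was -1.61, beside -1.82 for the 9 enzymes, and the difference was not tested. *PCNA*, the sliding clamp, fell from 70.3 ± 4.17 to 24.9 ± 2.14 CPM (SD, n = 3 each, log2FC -1.496), between *RRM1* and *CAD* in size. By the KEGG annotation in the table, 8 of the 9 enzymes belong to pyrimidine metabolism, 3 to purine metabolism, and 2 to the folate carbon pool. Of the tested genes of these pathways, 26 of 45, 51 of 97, and 10 of 16 were lower, and 10, 28, and 3 were higher. These counts include the enzymes themselves, and the 8 in pyrimidine metabolism were all among its lower genes. Over all tested genes, the shares were 38.7% lower and 40.9% higher. With library size only, 21, 28, and 8 were lower and 21, 48, and 6 higher, against 2861 lower and 7921 higher of all 12588 tested genes.

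The genes whose profile over the 6 libraries was most like that of an enzyme were found by the root-mean-square difference of centered log2(CPM + 0.5), among 8589 genes. The groups differ for most genes, so this measure mostly matches the size of the difference. For *RRM2* the nearest genes were *DPT*, *SELENBP1*, and *MKI67* (0.17, 0.26, and 0.32), and for *TK1* they were *MCM5*, *EDIL3*, and *COL8A2* (0.12, 0.17, and 0.22). With ATRA, the mean levels of *RRM2* and *TK1* (0.508 and 0.437 CPM) were near the added 0.5, so their matches need not share a fold change. The log2FC of these matches was -8.36, -7.93, and -10.3 for *RRM2* (-8.84), and -6.44, -6.48, and -8.41 for *TK1* (-6.89). For *TYMS* the nearest genes were *P3H4*, *PHGDH*, and *IL27RA* (0.0271 to 0.0317), for *CTPS1* they were *VOPP1*, *CDK6*, and *MFAP2* (0.0192 to 0.0354), and for *RRM1* they were *GNG2*, *DENND3*, and *ITGAV* (0.0368 to 0.0571). *CAD* was nearest to *RSL1D1*, *AP2A1*, and *FOXO1* (0.0185 to 0.0251), *UMPS* to *RRS1*, *GNL3L*, and *AATF* (0.0177 to 0.0268), *DUT* to *BLOC1S1*, *TMEM160*, and *SIVA1* (0.0448 to 0.0471), and *GART* to *GNE*, *MRPS30*, and *RWDD4* (0.0186 to 0.0269).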

How the data were processed

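Libraries were prepared by the authors from oligo(dT)-enriched mRNA, reads were cleaned with fastp and TrimGalore, and the deposited values are whole-number counts of reads per gene, not normalized. The submitters' processing notes name HISAT2, featureCounts, and DESeq2 without roles. The genome build and annotation are not given in the sources used here. Dose, time, and age were taken from the study's methods.

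Genes with low counts were removed with filterByExpr by group (12588 of 15944 remained), and the counts were scaled by TMM and tested in edgeR with the robust quasi-likelihood test over all 6 libraries without covariates. Normalized CPM uses library totals times TMM factors. The standard error is the absolute log2FC over the square root of F. Changing scaling can shift every log2FC by a common amount. Ratios used a pseudocount of 0.5, and 1 of the 7 computed is not reported here. The edgeR, DESeq2, and t tests were checked on simulated counts with few changed genes, as many raised as lowered. That setting lacks the many differences and the unequal TMM factors seen here, so it does not check the tests for them. The 9 genes, the partner lists, the ratios, and the naming rule (members, ratio genes, fixed partners, up to 3 genes per direction and list by size of log2FC, nearest profiles) were chosen with earlier results of these data known. *ADSS1* and *ADSS2* were matched under older symbols, and 4 partner genes (*PRPS1*, *PAICS*, *NME2*, and *MTHFS*) through the symbol column, after the table was seen. Promoter letters were not analysed here.

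No library pair within a group looked like copies (chi-square per degree of freedom 5.01 to 18.4, the highest with ATRA replicate 2). Alternatives were RLE, upper-quartile, and library-size scaling, other filters, DESeq2, the t.test function of R applied to log2(CPM + 1), the replicate block, other pseudocounts, and each library left out. Software was R 4.3.3, edgeR 4.0.16, DESeq2 1.42.0, Python 3.11.15, and scipy 1.17.1.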

Additional observations from a re-analysis of the deposited data

How the results depend on the processing

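*RRM1*, *RRM2*, *TYMS*, *TK1*, *CTPS1*, *CAD*, and *UMPS* kept their direction and an adjusted p under 0.05 under all 14 alternatives each. With the t.test function of R applied to log2(CPM + 1), the log2FC was -7.32 for *RRM2* and -5.25 for *TK1*. With library size only, *DUT* was lost (-0.0397, adjusted p = 0.730), *GART* was higher (0.52, adjusted p = 4.13e-06), 1 enzyme was called higher, the partner lists had 22 genes lower in all, 1 in the purine list, and 4 in the deoxynucleotide list, 5 pyrimidine partners were higher, and 2 replication genes were higher. Of all 12588 tested genes, 2861 were lower and 7921 higher with library size only. By the t.test function *DUT* kept its log2FC of -0.52 but missed the threshold (adjusted p = 0.0775). By the same function 1 replication gene was higher, as with upper-quartile scaling. Under upper-quartile scaling and library size only, every ATRA library lay above every control library for 1 enzyme. Leaving out each library in turn gave a log2FC of -0.0109 to 0.0773 for *GART*, which was negative without control replicate 1, and of -7.66 to -6.59 for *TK1*. It gave 2 to 4 purine partners higher (2 without control replicate 1) and a *CAD* to *UMPS* log2 difference of -0.0525 to 0.0492. The cause of these changes was not tested. Same-numbered libraries did not all deviate together (correlations of 0.32, -0.0310, and -0.26 for replicates 1, 2, and 3). Control replicate 1 and ATRA replicate 1 were each other's best match. Not every library correlated best with its own number, and the highest correlation was 0.39, for control replicate 3 with ATRA replicate 2. With the replicate number as a block, 8 enzymes stayed lower and 0 higher and no call of an enzyme or count of a list changed side; *DUT* had an adjusted p of 0.0121 with the block. Same-numbered differences cannot give an exact sign-flip p under 0.25. The few reads left for *RRM2* and *TK1* with ATRA limit the precision of their fold change.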
